A study of Mus musculus with 18 samples.

Results

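Krt1, Krt10, Krt77, Krtdap, Lor, Sbsn, Calm4, Dmkn, Stfa1 and Stfa3 are genes that skin keratinocytes switch on as they leave the basal layer. These 10 genes of the 31053 features in the count matrices were followed cell by cell in 18 single-cell RNA libraries of the mouse mammary gland. They were chosen by name as epidermal differentiation genes, and the cells were then ordered by their Krt10 count. The questions were in which libraries and cells the genes occurred, in what order they appeared along Krt10, and how far their cells overlapped with cells carrying Epcam, the adhesion molecule used to mark mammary epithelium. Every count is a number of unique molecular identifiers (UMIs), each standing for 1 captured RNA molecule, and levels are given as CPM, a gene's UMIs in proportion to all UMIs of the same cells. Because the chemistry tags only the 3′ end of each RNA, levels of different genes were not divided by gene length.

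In the epidermis, basal keratinocytes hold Krt5, Krt14 and Krt15, and their daughters move outwards while replacing these with the keratin pair Krt1 and Krt10. Suprabasal cells then build a cornified envelope from precursors such as loricrin (Lor), make secreted proteins such as suprabasin (Sbsn), dermokine (Dmkn) and Krtdap, and express the calcium-binding protein Calm4 and the stefins, which inhibit cysteine proteases. The mammary gland is an ectodermal appendage of the skin. Its basal cells also carry Krt5 and Krt14, so these keratins do not separate skin from mammary cells. Its luminal cells carry the simple keratins Krt8 and Krt18 instead.

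The study profiled the gland from late gestation to post-involution, with 1 library for each immature stage. The E18.5 mammary library came from rudiments dissected out of female C57BL/6 embryos of the Lgr5-GFP knock-in line, and the E18.5 skin library came from the skin beside them. Both were sorted as cells negative for Ter119, CD31 and CD45, which removes erythroid, endothelial and blood cells, and were then gated on CD24 and CD29. The postnatal day 5 and pre-puberty (2.5 weeks in the labels) libraries were from C57BL/6 glands. The 14 later libraries began with puberty terminal end buds (TEBs) and ducts from C57BL/6 females of 5 weeks with E-cadherin-GFP. They further held adults of 10 weeks (3 FVB/NJ, 1 C57BL/6 and 1 SWISS). FVB/NJ pregnancy day 12.5, pregnancy day 18.5 and lactation day 10 had 2 libraries each. The last was 1 FVB/NJ post-involution library, 3 weeks after weaning in the paper. Animals were pooled within a library, so the library is the replicate, and the immature stages could be described but not tested against each other.

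After the filters of the study, 132599 cells were kept, 6398 in the E18.5 mammary library, 9025 in the E18.5 skin library, 3728 at postnatal day 5 and 4037 at pre-puberty. Their median UMIs per cell were 7564.5, 5257, 9578.5 and 7250, and the later libraries had medians between 2498 and 21609. The kept E18.5 mammary and skin cells shared 75 barcodes, and those of postnatal day 5 and pre-puberty shared 2. The skin library, which its labels call adjacent skin and adjacent epidermis, held mostly cells with fibroblast genes. Of its 9025 cells, 93.7% had 10 or more UMIs of 6 fibroblast genes and none of Epcam (called fibroblast-gated from here on), 1.64% had 5 or more UMIs of Krt14 and Krt5 together, and 1.95% had 2 or more of Epcam. It is therefore called fibroblast-rich here, and its few keratin-positive cells are given as values only. The paper saw some contamination of the E18.5 mammary preparation by epidermal cells. It also regarded small clusters in its E18.5, postnatal day 5, pre-puberty and adult data as contaminating skin or stroma, and removed such clusters for its epithelial comparisons. No cluster was removed here, and how many of the cells described below belonged to those clusters was not tested.

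Sbsn, Dmkn and Krtdap are neighbours. They lie in this order on the plus strand of chromosome 7 (GRCm38, GENCODE vM21) at chr7:30751471-30756134, chr7:30763756-30781063 and chr7:30787896-30791097. The 3 genes span 39627 bases, with gaps of 7621 and 6832 bases, and no other annotated gene lies between them. Krt1 (chr15:101845426-101850794) and Krt77 (chr15:101858731-101869705) are both on the minus strand of the type II keratin cluster and together span 24280 bases. Stfa1 (chr16:36276951-36285373, plus strand) and Stfa3 (chr16:36450537-36455392, minus strand) lie in the stefin cluster. Krt10 is at chr11:99385254-99389364 and Lor at chr3:92080271-92083142, both on the minus strand, and Calm4 is at chr13:3837757-3838673 on the plus strand.

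RefSeq promoter windows of GRCm38.p6, from 250 bases before to 50 after each start, were found for 9 of the 10 genes, and Krt1 is named only. The 120 bases before the start are shown for the chromosome 7 neighbours, for Krt10 and Lor, and for the stefin pair, because these are the genes whose cells are compared here. Capitals mark matches to the AP-1 motif TGANTCA and the TATA box TATAAA.
Sbsn, chr7:30751351-30751470, plus strand: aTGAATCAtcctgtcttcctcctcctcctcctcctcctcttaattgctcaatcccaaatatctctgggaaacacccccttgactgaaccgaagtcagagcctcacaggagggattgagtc
Dmkn, chr7:30763636-30763755, plus strand: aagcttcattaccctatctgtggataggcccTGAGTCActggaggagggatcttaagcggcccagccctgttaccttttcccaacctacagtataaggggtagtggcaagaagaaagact
Krtdap, chr7:30787785-30787904, plus strand: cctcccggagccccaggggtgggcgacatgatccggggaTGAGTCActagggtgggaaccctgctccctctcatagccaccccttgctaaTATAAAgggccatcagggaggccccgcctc
Lor, chr3:92083143-92083262, minus strand: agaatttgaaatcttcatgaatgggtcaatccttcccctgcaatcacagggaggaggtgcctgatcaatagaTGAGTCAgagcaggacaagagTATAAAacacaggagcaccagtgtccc
Krt10, chr11:99389365-99389484, minus strand: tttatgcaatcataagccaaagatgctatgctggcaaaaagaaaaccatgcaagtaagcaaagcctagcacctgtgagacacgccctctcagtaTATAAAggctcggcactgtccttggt
Stfa1, chr16:36277028-36277147, plus strand: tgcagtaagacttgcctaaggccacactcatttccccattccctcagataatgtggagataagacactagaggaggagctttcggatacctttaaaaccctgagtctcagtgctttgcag
Stfa3, chr16:36455393-36455512, minus strand: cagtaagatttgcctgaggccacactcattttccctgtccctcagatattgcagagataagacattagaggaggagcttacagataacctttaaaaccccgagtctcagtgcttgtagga

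The AP-1 motif, searched on both strands of the full windows, was present for 5 of the 9 genes (Krtdap, Lor, Sbsn, Dmkn and Stfa3), against 8.97% of the 27025 genes with a window. The Stfa3 match lies outside its printed stretch. TATAAA was present for 3 (Krt10, Krtdap and Lor), against 15.7% of genes, and CCAAT for 5, against 41.1%. The KLF motif CCACCC was present for 5 (34.0% of genes), the C/EBP motif TTNCNNAA for 7 (44.1%) and the GRHL motif AACCNGTT for none (2.35%). AP-1 matches overlapped no TATAAA match in the printed stretches. The Stfa1 and Stfa3 windows were identical at 82.8% of aligned bases. The last 300 transcript bases of Stfa1 were 98.7% identical to those of BC100530, another stefin A gene, so its counts are uncertain where reads could not be assigned between such copies.

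Together the 10 genes took 0.874% of all UMIs at postnatal day 5 (8744 CPM) and 0.173% in the E18.5 mammary library (1728 CPM). The sum was 96.8 CPM in the E18.5 skin library and 52.1 CPM at pre-puberty, and it lay between 27.8 and 104 CPM in the later libraries. Thus the summed level was high in 2 libraries and low in the next stage sampled.

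The library totals of the suprabasal keratins Krt1 and Krt10 were apart where both were low. Krt1 was at 160 CPM in the E18.5 mammary library, 7.60 in the skin library, 1803 at postnatal day 5 and 0.35 at pre-puberty, where it was represented by 13 UMIs. Krt10 was at 225, 25.1, 1740 and 20.2 CPM in the same order. Krt10 was thus at a low level where Krt1 was almost absent. In the later libraries Krt10 lay between 6.88 and 34.0 CPM while Krt1 lay between 0.25 and 9.62 CPM. The 2132 postnatal day 5 cells with no Krtdap and under 5 Krt10 UMIs also had more Krt10 (35.2 CPM) than Krt1 (9.99 CPM). Krt77, a type II keratin close to Krt1, was scarce throughout, at 1.07 CPM in the E18.5 mammary library, 0.02 in skin, 19.9 at postnatal day 5 and 0.03 at pre-puberty.

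The stefins were the most abundant of the 10 genes in the E18.5 mammary library. Stfa3 was at 455 CPM there, 8.17 in skin, 2240 at postnatal day 5 and 0 at pre-puberty. Stfa1 was at 343, 3.67, 870 and 0.05 CPM. Neither exceeded 0.95 CPM in any later library, and Stfa1 was highest among these in the TEB library (0.76 CPM). Calm4, the calmodulin-like protein of skin, went the same way, with 61.6, 2.84, 266 and 0.03 CPM, and it exceeded 0.29 CPM in 1 later library only (6.18 CPM in lactation day 10 replicate 2).

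The library totals of the 3 neighbours on chromosome 7 were far apart at pre-puberty. Krtdap was at 277 CPM in the E18.5 mammary library, 14.7 in skin, 963 at postnatal day 5 and 0 at pre-puberty. Dmkn was at 179, 14.2, 725 and 2.09 CPM. Sbsn was at 23.5, 18.7, 110 and 29.3 CPM, so at pre-puberty it was near its level in the embryonic libraries while Krtdap was not detected. In the later libraries Sbsn lay between 5.49 and 38.4 CPM, Dmkn between 4.35 and 34.1 CPM, and Krtdap between 0 and 16.9 CPM. Lor, the main envelope protein of mature epidermis, was low in every library, at 2.55, 1.71, 7.18 and 0.05 CPM in the 4 immature libraries and at most 2.76 CPM later.

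**Figure D1:**
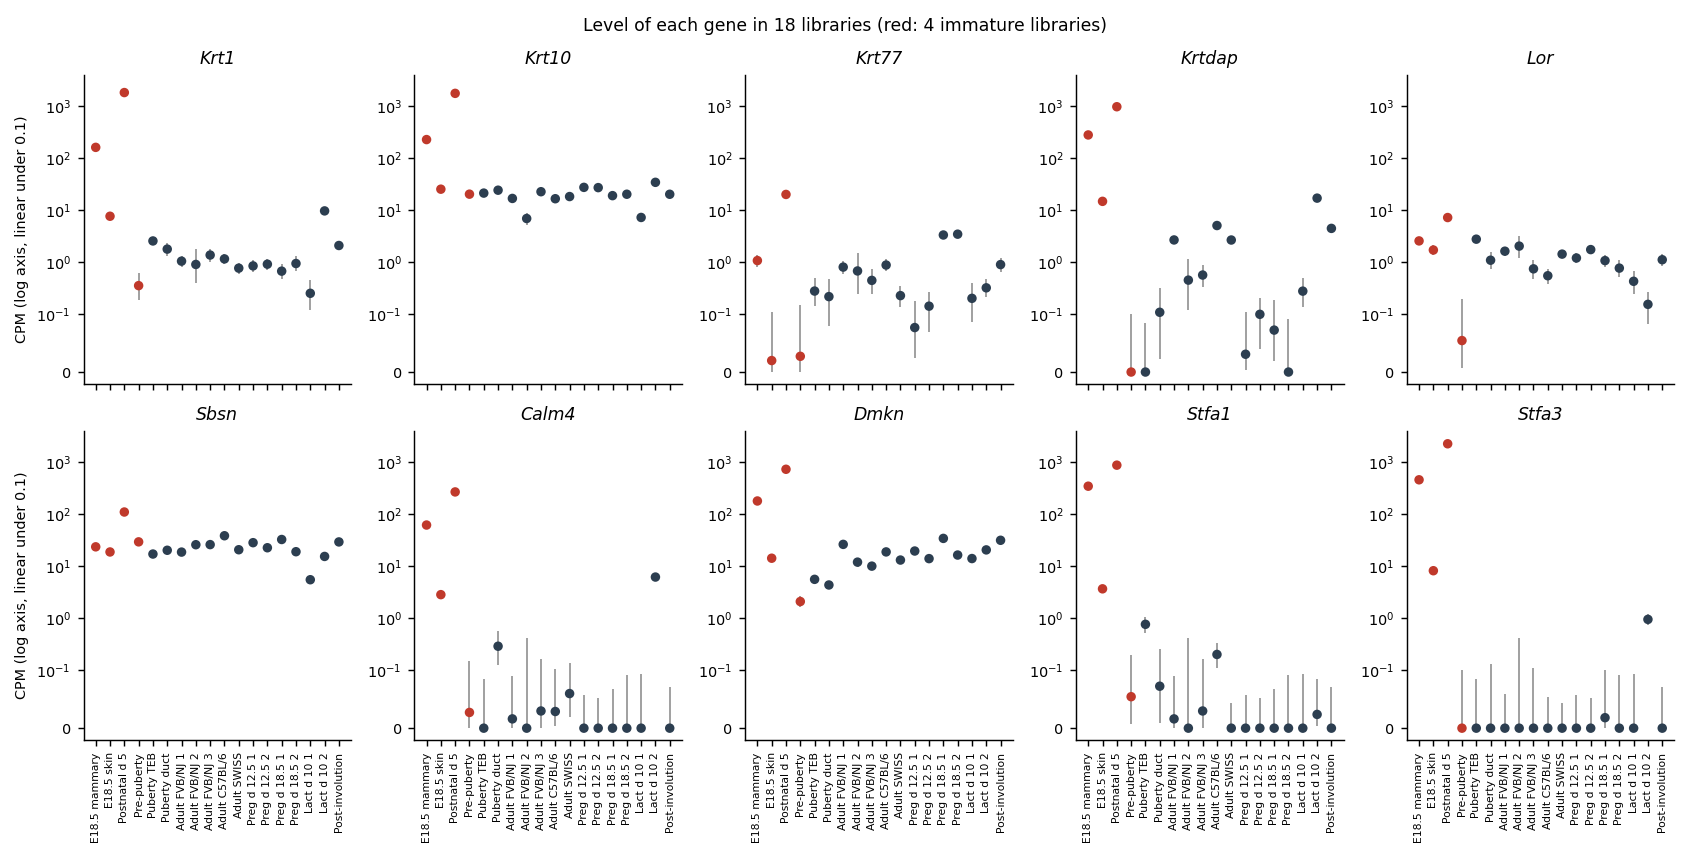
Level of each of the 10 genes (CPM, log axis, linear under 0.1) in each library, immature libraries in red, with exact 95% Poisson intervals that cover counting error only. The postnatal day 5 and E18.5 mammary libraries stood above the rest for Krt1, Krtdap, Calm4, Stfa1 and Stfa3, whereas Krt10, Sbsn and Dmkn kept levels of several CPM in most later libraries.

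These libraries were uneven mixtures, since most UMIs of the genes came from few cells. Cells with 5 or more Krt10 UMIs (Krt10-positive cells) made up 172 of 6398 cells in the E18.5 mammary library (2.69%, exact 95% binomial interval 2.31 to 3.11) and 324 of 3728 at postnatal day 5 (8.69%, 7.81 to 9.64). The intervals cover counting error only. These cells held 80.5% and 97.9% of the Krt10 UMIs of their libraries and 50.7% and 72.0% of the UMIs of all 10 genes. The skin library held 2 such cells, and pre-puberty held 0 of 4037, which allows a share of up to 0.0743% by the rule of 3 counts and 0.0913% by the exact binomial interval. Fewer cells of a kind and fewer molecules per cell cannot be told apart in a library's total, but these counts were made per cell.

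In cells at their full depth, Krt1 was much higher from 5 Krt10 UMIs on. In the E18.5 mammary library Krt1 was at 30.5 CPM in the 4398 cells without Krt10, 35.3 CPM in the 1423 cells with 1 UMI and 55.0 CPM in the 405 cells with 2 to 4. It was 668 CPM at 5 to 19 UMIs, 3463 CPM at 20 to 99 and 7376 CPM at 100 or more. At postnatal day 5 the same steps were 35.1, 49.1, 108, 1796, 5358 and 20308 CPM. Cells with 2 to 4 UMIs thus had 1.80 and 3.08 times the Krt1 level of cells with none, against 21.9 and 51.2 times at 5 to 19. The place of this step depends on depth. With every cell thinned to 2000 UMIs, Krt1 in cells with 2 to 4 Krt10 UMIs was already 692 CPM against 35.5 in cells with none at E18.5, and 2153 against 50.4 CPM at postnatal day 5. Krt10 UMIs were also found outside Epcam cells, since 17.9% of the 379 fibroblast-gated cells of the E18.5 mammary library (median 3485 UMIs) had one, against 32.6% of its Epcam cells (median 8698 UMIs).

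**Figure D2:**
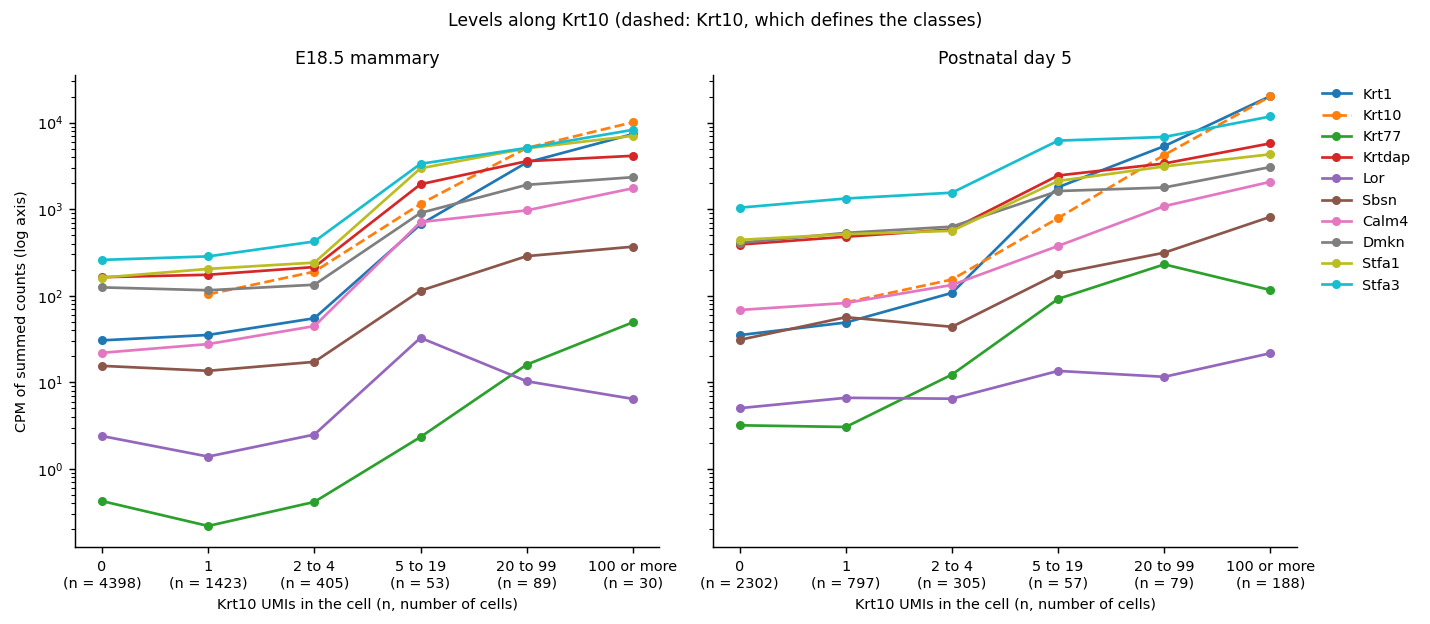
Level of each gene (CPM, log axis) in cells classed by their Krt10 UMIs, from 0 to 100 or more, in the E18.5 mammary and postnatal day 5 libraries. Most lines step up between the classes of 2 to 4 and 5 to 19 UMIs, as Krt1 does from 55.0 to 668 CPM and from 108 to 1796 CPM. Krt10, which defines the classes, is dashed.

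The genes differed in the Krt10 class at which they neared their top level. Krtdap in the E18.5 mammary library was at 164 CPM in cells without Krt10, 1942 at 5 to 19 UMIs, 3587 at 20 to 99 and 4140 at 100 or more, so it neared its top in a lower class than Krt1. Stfa1 passed through 162, 2969, 5054 and 7044 CPM, and Dmkn through 125, 906, 1912 and 2342 CPM. Krtdap, Sbsn, Calm4, Dmkn, Stfa1 and Stfa3 had all passed 10% of their top level at 5 to 19 UMIs and 50% at 20 to 99. Krt1 and Krt77 passed 10% at 20 to 99 UMIs and 50% at 100 or more in that library. The order was not the same at postnatal day 5, where Krt77 passed 10% at 5 to 19 and 50% at 20 to 99 UMIs, and Sbsn passed 50% at 100 or more. With every cell thinned to 2000 UMIs, the same 6 genes passed 10% at 2 to 4 and 50% at 5 to 19 UMIs at E18.5, and Krt1 again came a class later, at 5 to 19 and 20 to 99. In thinned cells of postnatal day 5 Krt1 passed 10% at 2 to 4 UMIs, as Sbsn, Calm4 and Krt77 did, and 50% at 20 to 99, as Sbsn did.

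The secreted and stefin genes were already present in postnatal day 5 cells without Krt10. Dmkn was at 409 CPM there, 13.3% of its top level, and Stfa1 was at 442 CPM, 10.3% of its top level. Krtdap was at 6.77%, Sbsn at 3.78% and Krt1 at 0.173% of their top levels. These cells were a mixture. The 572 with 5 or more Krtdap UMIs had 1048 CPM of Dmkn and 1387 of Stfa1. Epcam cells with neither Krt10 nor Krtdap had 85.8 and 13.7 CPM, and fibroblast-gated cells of the library 45.8 and 120 CPM. Cells with 100 or more Krt10 UMIs reached 20308 CPM of Krt1, 11791 of Stfa3, 5766 of Krtdap, 4313 of Stfa1, 3069 of Dmkn, 2075 of Calm4 and 817 of Sbsn. Across all cells, 8 of the 9 genes other than Krt10 were highest in the top class in each library. The exceptions were Lor in the E18.5 mammary library, highest at 5 to 19 UMIs (32.7 against 6.43 CPM), and Krt77 at postnatal day 5, highest at 20 to 99 UMIs (230 against 116 CPM). In thinned cells the counts were 7 and 8 of 9, with other exceptions. At postnatal day 5 Krt77 was then highest in the top class (147 CPM) and Lor was not (33.9 CPM at 2 to 4 UMIs against 18.8 in the top class), and at E18.5 Stfa1 joined Lor, at 6177 CPM at 5 to 19 UMIs against 5948 in the top class.

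Basal keratins ran the opposite way at postnatal day 5. Among its Krt10-positive cells, Krt14 was at 21042 CPM at 5 to 19 UMIs, 14602 at 20 to 99 and 4291 at 100 or more, and Krt5 at 10087, 7386 and 2145 CPM. Ly6d, a surface protein of stratified epithelia, was at 5637, 6510 and 8198 CPM over the same classes. The proliferation marker Mki67 was at 58.2 CPM, 40.0 CPM and 7.95 CPM. These are values of 1 library, without a test.

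Cells with Krtdap but little Krt10 were the more common kind. This class (5 or more Krtdap UMIs with under 5 of Krt10) was chosen after seeing the data. It had 983 cells at postnatal day 5 and 453 in the E18.5 mammary library, against 324 and 172 Krt10-positive cells. At postnatal day 5 these cells had 14398 CPM of Krt14, 7104 of Krt5 and 5980 of Krt15, more than the 8759, 4331 and 4488 CPM of the Krt10-positive cells. They also had 3363 CPM of Stfa3, 1352 of Stfa1 and 1078 of Dmkn, but only 123 CPM of Krt1, 56.0 of Sbsn and 214 of Calm4. The order was alike in the E18.5 mammary library, with 2461 CPM of Stfa3, 1574 of Stfa1 and 477 of Dmkn beside 100 CPM of Krt1 and 31.3 of Sbsn.

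In the E18.5 mammary and postnatal day 5 libraries the Krt10-positive cells had every gene of the set at its highest level among the 4 classes. They had, at postnatal day 5, 14688 CPM of Krt1, 10010 of Stfa3, 4814 of Krtdap, 3758 of Stfa1, 2607 of Dmkn, 1632 of Calm4, 626 of Sbsn, 135 of Krt77 and 18.5 of Lor. Both stefins exceeded Krt1 in UMIs in the E18.5 mammary library, with 5508 CPM of Stfa3 and 5074 of Stfa1 against 3817 of Krt1. Erythroid genes were summed at 512 CPM in the Krtdap cells with little Krt10 at postnatal day 5 and at 0.40 CPM in the Krt10-positive cells; the part of this in the values above was not tested. The 10 cells of that Krtdap class in lactation day 10 replicate 2 had Krt14 at 3454 CPM, and the 30 in the skin library had it at 2670 CPM.

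**Figure D3:**
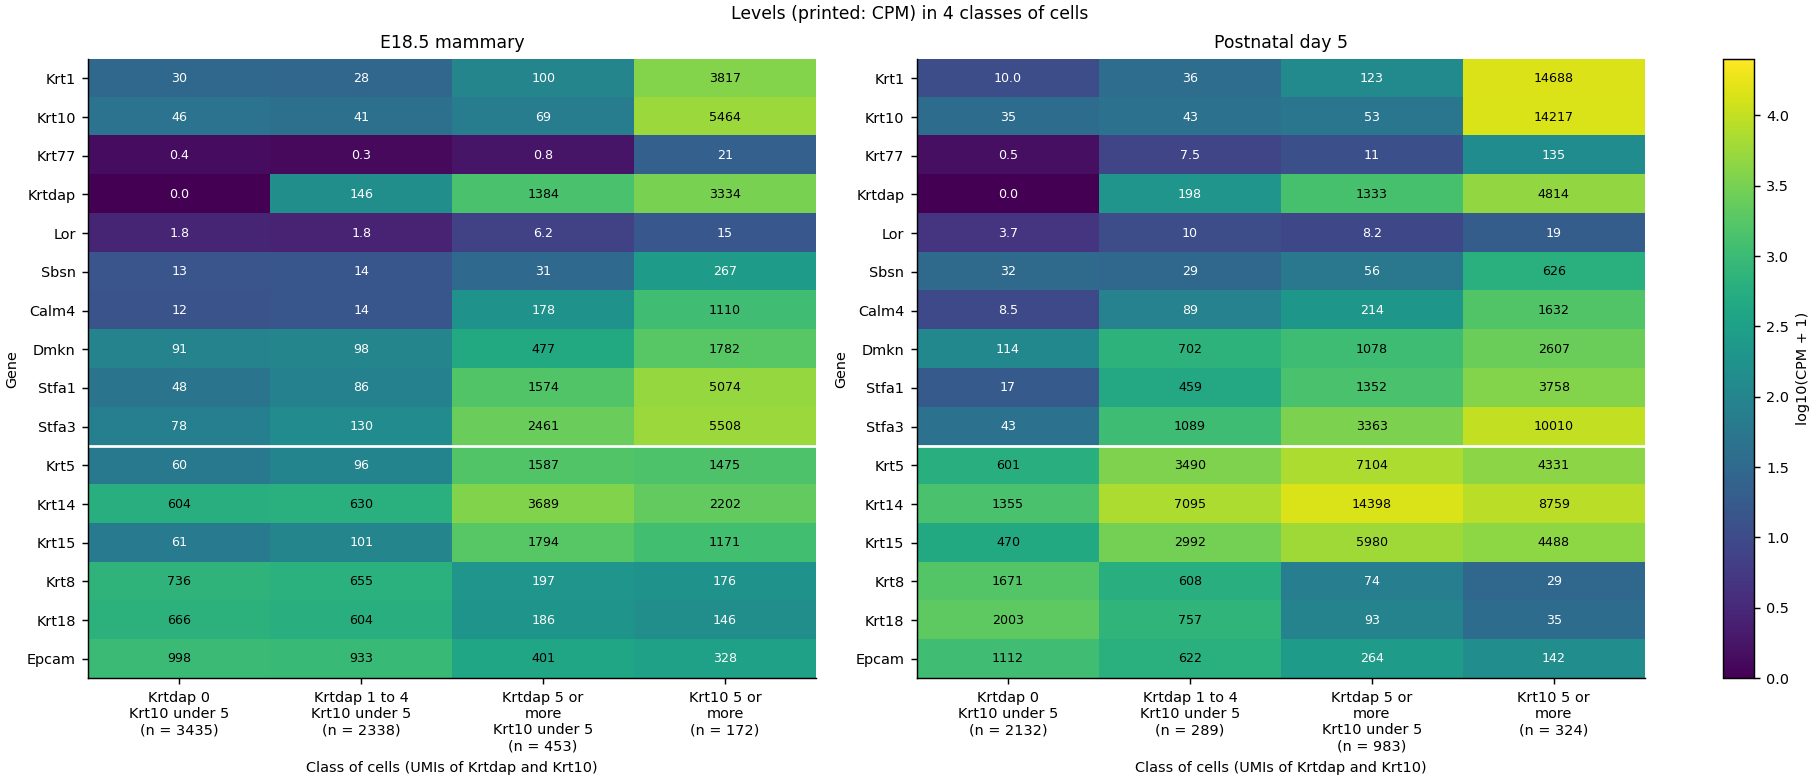
Levels (printed in CPM, coloured by log10 of CPM + 1) of the 10 genes and of 6 keratin and adhesion genes in 4 classes of cells set by Krtdap and Krt10 UMIs. Krt5, Krt14 and Krt15 were highest in the class with 5 or more Krtdap UMIs and under 5 of Krt10, and Krt1 was at most 123 CPM outside the Krt10-positive class; Krtdap and Krt10 define the classes.

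Within the Krt10-positive cells the genes varied together to different degrees. Across the 324 cells at postnatal day 5, Pearson's r of log levels was 0.86 for Krt1 and Krt10, 0.77 for Krtdap and Dmkn, and 0.63 for Stfa1 and Stfa3. In the 172 cells of the E18.5 mammary library the same pairs had r of 0.83, 0.64 and 0.59. Other pairs were about as close as the stefins or closer at postnatal day 5 and mostly less close at E18.5, with r at postnatal day 5 and E18.5 of 0.70 and 0.46 for Krtdap and Sbsn, 0.67 and 0.58 for Krt10 and Krtdap, 0.64 and 0.37 for Krt10 and Sbsn, 0.63 and 0.27 for Krt10 and Calm4, and 0.63 and 0.45 for Sbsn and Dmkn. Krt77 and Stfa1 ran against each other at postnatal day 5 (r = -0.43), and Krtdap and Stfa1 hardly varied together (r = 0.18 at postnatal day 5 and -0.05 at E18.5). These correlations are descriptions across cells of 1 library each, which share depth and library.

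Likeness to the sum of the 10 was ranked by mean r across cells, among 10519 genes detected in enough cells of each of the 4 immature libraries. Among the most like were Lgals7 (0.42), Krt15 (0.42), Krt5 (0.40), S100a14 (0.40), Perp (0.39), Fgfbp1 (0.39), Sfn (0.37), Lgals3 (0.35), Krt14 (0.34), Dsp (0.34) and Serpinb5 (0.33). The detection rule left out BC100530 (0.45), found in 0.718% of pre-puberty cells, and Csta1 (0.34). With the E18.5 mammary and postnatal day 5 libraries alone, a choice made after seeing the data, the stefin BC100530 led at 0.80, followed by Krt15 at 0.71 and Lgals7 at 0.69. At pre-puberty the sum of the 10 was 52.1 CPM, mostly Sbsn (29.3 CPM) and Krt10 (20.2 CPM). None of these genes had an r above 0.14 there.

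Epcam UMIs were found in a smaller share of Krt10-positive cells than of cells without Krt10. In the E18.5 mammary library 112 of 172 Krt10-positive cells had 2 or more Epcam UMIs (65.1%, 57.5 to 72.2), against 79.2% of cells without Krt10 (78.0 to 80.4). At postnatal day 5 the share was 126 of 324 (38.9%, 33.5 to 44.4) against 60.6% (58.5 to 62.6). Krt10-positive cells were deeper than the rest, and with each cell thinned to 2000 UMIs the shares were 13.1% against 50.2% at E18.5 and 5.90% against 33.9% at postnatal day 5. With 2 or more Epcam UMIs the shares differed by more than their counting intervals in both libraries. With 1 or more they did so at postnatal day 5 only, since at E18.5 the intervals overlapped (84.3%, with an upper bound of 89.4, against 89.1%, with a lower bound of 88.1), and no test between cells was made.

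At postnatal day 5 the Epcam share lay below or above a background of the same library, depending on which fibroblast cells were taken. At equal depth the counting intervals overlapped. That background was taken, after seeing the data, from cells with 10 or more fibroblast UMIs and under 5 of Krt10, which should lack Epcam but can be mixed with epithelial cells. Of 573 such cells at postnatal day 5 (median 8554 UMIs) 32.5% had 2 or more Epcam UMIs, and of 762 in the E18.5 mammary library (median 4413.5 UMIs) 20.3%. The Krt10-positive cells were deeper, with medians of 14588.5 and 9412.5 UMIs. The share expected over all draws of 2000 UMIs was 4.56% in Krt10-positive cells at postnatal day 5 (2.63 to 7.57) and 6.43% in the fibroblast cells (4.61 to 8.84). Keeping only the 407 fibroblast cells with fewer Krt14 than fibroblast UMIs made the latter 2.61% (1.37 to 4.82). In the E18.5 mammary library the Krt10-positive cells were above it, at 14.4% (9.37 to 20.5) against 6.01% (4.36 to 8.15). Epcam was at 142 CPM in the Krt10-positive and 213 CPM in the fibroblast cells of postnatal day 5, and at 328 and 230 CPM at E18.5. In the 407 fibroblast cells with fewer Krt14 UMIs at postnatal day 5 (median 6731 UMIs) Epcam was lower, at 113 CPM. At full depth 18.2% of them (14.6 to 22.3) had 2 or more Epcam UMIs.

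The simple keratins Krt8 and Krt18 were not above this background in either library once depth was equal. At full depth 3.70% of Krt10-positive cells at postnatal day 5 had 2 or more UMIs of Krt8 and Krt18 together, against 41.9% of cells without Krt10 and 4.89% of the fibroblast cells. Of the 324 Krt10-positive cells 10 had both these and Epcam. In the E18.5 mammary library the shares were 65.7% and 82.1%, against 42.5% of the shallower fibroblast cells, and 84 of 172 Krt10-positive cells (48.8%) had both. In 2000 UMIs the share expected was 12.8% of Krt10-positive (7.91 to 18.5) and 13.6% of fibroblast cells at E18.5 (11.1 to 16.5), and 1.19% (0.339 to 3.15) and 2.05% (1.09 to 3.65) at postnatal day 5. For both these and Epcam it was 2.30% and 2.28% at E18.5, so the 84 cells are not shown to carry both by expression. In CPM, Krt8 in the E18.5 Krt10-positive cells was 176 against 680 in cells without Krt10.

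**Figure D4:**
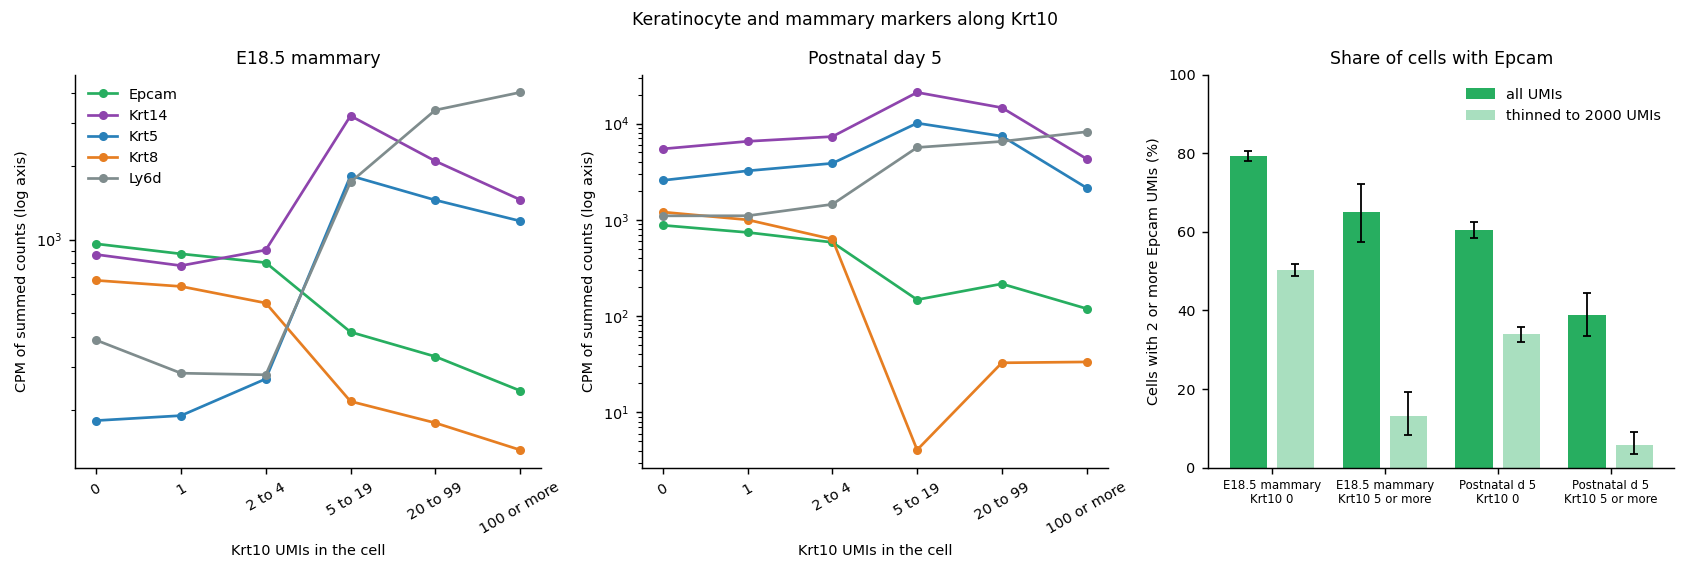
The left and middle panels plot the levels of Epcam, Krt14, Krt5, Krt8 and Ly6d (CPM, log axis) by Krt10 UMIs in the E18.5 mammary and postnatal day 5 libraries, and the right panel the percent of cells with 2 or more Epcam UMIs, for all UMIs and after thinning each cell to 2000 UMIs, with exact 95% binomial intervals. Krt10-positive cells were below the others in both libraries, at 65.1% against 79.2% and 38.9% against 60.6% before thinning.

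Krt10-positive cells with and without 2 Epcam UMIs differed in hair follicle genes at postnatal day 5. There the Epcam share at equal depth overlapped the background within counting intervals. Krt79, a keratin of the follicle's upper canal and sebaceous duct, was at 2131 CPM in the 126 cells with 2 or more Epcam UMIs and 174 CPM in the other 198. Krt17 was at 1766 and 308 CPM, Krt77 at 222 and 66.4 CPM, and Mki67 at 43.3 and 4.66 CPM. The summed luminal list reached 291 and 82.9 CPM, far below the 9201 CPM of Epcam cells with neither Krt10 nor Krtdap. Their median UMIs were 16588 and 13797. In the E18.5 mammary library Krt79 was at 531 and 239 CPM, and the luminal list at 552 and 422 CPM. Neutrophil genes, which could accompany stefins, were summed at 1.13 CPM in all Krt10-positive cells of the E18.5 mammary library and 7.46 CPM at postnatal day 5 beside 5074 and 3758 CPM of Stfa1.

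Krt10-positive cells were compared with cells without Krt10 within the 2 immature libraries that held 20 or more of both, leaving out cells with 1 to 4 Krt10 UMIs. Counts were summed over each kind of cell, and the libraries entered as a block, which leaves 1 residual degree of freedom before edgeR's quasi-likelihood test shares information between genes. In this comparison the UMIs of Krt10 itself were left out of the totals, so CPM values are slightly above those given for the same cells before. Lactation day 10 replicate 2 also held 20 or more of both and was added only as an alternative, where the 9 genes kept their calls. All 9 genes other than Krt10 were higher in the Krt10-positive cells, where 4.54% of the 13077 genes tested were called higher and 7.1% lower at an adjusted p under 0.05 (Benjamini-Hochberg), and 9.68% were higher at an unadjusted p under 0.05. Of the 9, 8 were higher by 4-fold or more in both libraries, against 1.1% of genes tested. The genes were chosen as an epidermal set and Krt10 is one of them, so their shared direction is a description of the set.

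Krt1 differed most, at 3838 against 30.5 CPM in the E18.5 mammary library and 14900 against 35.1 CPM at postnatal day 5. Its log2 difference was 8.11 (SE 0.71, adjusted p = 0.000993 by edgeR's quasi-likelihood test with Benjamini-Hochberg adjustment, 2 libraries). Krt77 followed with 21.6 against 0.42 CPM and 137 against 3.19 CPM, a log2 difference of 5.80 (SE 0.28, adjusted p = 0.000172, same test). Both type II keratins were thus higher in every library tested. The log2 difference was 5.39 for Calm4, 4.50 for Sbsn, 4.30 for Stfa1, 4.26 for Krtdap, 4.11 for Stfa3 and 3.53 for Dmkn, with adjusted p between 0.000412 and 0.00307 by the same test. Lor had the smallest, 2.50 (SE 0.35, adjusted p = 0.00627 by edgeR), from 14.8 against 2.40 CPM and 18.8 against 5.03 CPM. All 9 calls were lost when the block was left out, as the adjusted p then lay between 0.186 and 0.292 with 0 genes called by edgeR's quasi-likelihood test and 1663 at an unadjusted p under 0.05. With a gate of 2 or more Krt10 UMIs the calls of Lor, Sbsn, Stfa1 and Stfa3 were lost (adjusted p between 0.0813 and 0.185) and 39 genes were called, but the E18.5 skin and pre-puberty libraries then entered too. With that gate in the 2 original libraries alone, added after seeing the data, all 9 calls held and 706 genes were called. Krt77 lay below the level the low-count filter asks for (0.736 CPM) in the E18.5 cells without Krt10, and all 9 genes were also called without that filter.

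Other genes of late differentiation were found in the same cells. Of 30 late cornification genes 9 passed the low-count filter, and all 9 were called higher by edgeR at an adjusted p under 0.05. For 6 of them (Casp14, Flg, Ivl, Klk5, Krt2 and Serpinb12) a sum without Krt10 lay under the filter's 0.736 CPM, so these were tested because of their level in Krt10-positive cells, and their direction followed from that. The other 3 were higher as well. Among these the protease Asprv1, named after its values were seen, was at 922 against 19.2 CPM at E18.5 and 848 against 54.8 CPM at postnatal day 5, the highest level of the 9 in the Krt10-positive cells. Without the filter 11 of the 18 with any count were called higher. Serpinb12 was at 35.2 against 0.243 CPM at E18.5 and 201 against 0.269 CPM at postnatal day 5, and the caspase Casp14 at 45.5 against 0.364 and 51.1 against 1.12 CPM. Filaggrin, Flg, was at 6.25 and 7.98 CPM in the Krt10-positive cells, and Krt2 at 3.41 and 3.07 CPM.

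Envelope precursors and transglutaminases gave a like picture. Of 17 genes 13 passed the filter and 12 were called higher, but 7 of the 13 owed their test to the Krt10-positive cells in the same way, among them Sprr1b, Sprr2b, Sprr2d and Cnfn. All 6 that did not were higher, and without the filter 13 of 15 were. Sprr1b, a small proline-rich envelope protein, was at 312 against 3.31 CPM at E18.5 and 100 against 0.135 CPM at postnatal day 5. Cnfn was at 53.4 against 0.910 CPM and 7.36 against 0.135 CPM. Counts of the following lists are from the same edgeR test at an adjusted p under 0.05.

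Protease inhibitors and adhesion genes rose with them. Of 11 further stefins and other protease inhibitors tested, 10 rose (median 3.83), led by Serpinb3a (7.90), Spink5, Stfa2 (5.28) and Gm5483 (5.12). Of these 11, all that were listed, 5 including the 4 named were below 0.736 CPM in a sum without Krt10. Of 17 desmosome and adhesion genes, 15 rose (median 2.68), led by desmocollin Dsc1, desmogleins Dsg1a (5.89) and Dsg1b (4.88), and Perp (3.23). Barrier lipid enzymes rose for 9 of 12 (median 3.04), with Alox12b (6.16), Elovl4 (5.71), the ceramidase Acer1 (5.12) and Pnpla1 (4.70) ahead. The low-level genes by the same measure were 3 of the 17 (Dsc1, Dsg1a and Dsg1b) and 4 of the 12 (including Alox12b, Acer1 and Pnpla1), and leaving them aside 12 of 14 and 5 of 8 rose. Of 17 regulators of epidermal differentiation, 8 rose (median 1.17), among them the transcription factors Grhl1 (2.85), Zfp750 (2.83), Grhl3 (2.64) and Ovol1 (2.61).

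Mammary genes went down in the Krt10-positive cells. Of 17 luminal genes 13 fell (median -3.37), among them Cited1 (-5.78), Trf (-4.65), the receptor Kit (-4.64) and Foxa1 (-4.34). Of 8 mammary basal genes 7 fell (median -3.42), led by the smooth muscle genes Myh11 (-4.97), Tagln (-4.17) and Mylk (-3.80), and by the oxytocin receptor Oxtr (-3.50). Of 8 genes of the mammary rudiment 5 fell (median -2.05), among them Bex4 (-3.02) and Lcn2 (-2.97). The paper named Bex1, Bex4, Dstn, Lcn2, Spint2 and Espn of this list from a mammary cluster of the same E18.5 library. Their lower level in that library thus followed in part from how the list was made. Fibroblast genes fell for 5 of 6, led by Col1a1 (-4.34). Of these, 3 luminal genes (Cited1, Trf and Kit), 2 mammary basal genes (Myh11 and Oxtr) and 2 fibroblast genes (Col1a1 and Lum) lay under 0.736 CPM in a Krt10-positive sum, so the filter passed them through the cells without Krt10. Leaving aside the genes so placed, 10 of 13, 5 of 6 and 3 of 3 fell. None of 8 cell cycle genes was called (median -0.85), but without the low-count filter 5 of the 8 were called lower.

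Lists of neighbouring skin cells were mixed. Of 10 basal keratinocyte genes 2 rose, Krt5 (2.16) and Krt15 (2.08), and 1 fell, the integrin Itgb4 (-1.03). Of 13 hair follicle and sebaceous genes 1 rose, Krt79 (4.78), and 3 fell, the follicle keratin Krt71 (-3.70), the transcription factor Lhx2 (-3.36) and the desaturase Scd1 (-1.19). Of 6 periderm and stress keratins 2 rose, including Krt16 (3.82), and 3 fell, Krt19 (-4.98), Krt18 (-3.46) and Krt8 (-3.36). Krt71 and Lhx2 were under 0.736 CPM in a Krt10-positive sum. Melanocyte and Schwann genes fell for 3 of 5, and the Merkel gene Isl1 rose (1 of 2 tested). The 2 erythroid genes tested and Sox2 were under 0.736 CPM in both Krt10-positive sums, so they were tested because of the cells without Krt10, and their lower level followed from that. Neither of the 2 endothelial genes tested was called, nor was the single immune or the single neutrophil gene. Without the low-count filter 2 endothelial genes were called lower, 1 neutrophil gene higher and 1 lower, and no immune gene was called.

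The later libraries held few Krt10-positive cells. The TEB library had 7, with a median of 37004 UMIs, and none of them had a UMI of another of the 10 genes except Sbsn (4 UMIs). Lactation day 10 replicate 2 had 21 such cells, and the other 12 later libraries had none. The 21 cells, with a median of 4523 UMIs, had 20062 CPM of Krt10, 10264 of Krtdap, 6976 of Krt1, 4283 of Calm4, 3589 of Dmkn and 3096 of Sbsn. They also had 5945 CPM of Krt2, a keratin of mature suprabasal skin that was at 3.02 CPM in Krt10-positive cells at postnatal day 5. Stfa3 was at 639 CPM and Stfa1 at 18.3 CPM, and Lor was not seen. This profile therefore had less stefin and more Krt2 than the immature cells, in 1 library without a test. Replicate 1 of the same stage had no such cell among 5287, which allows a share of up to 0.0567% by the rule of 3 counts and 0.0697% by the exact binomial interval.

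Across the 13 other later libraries Krt1 did not climb with Krt10. It was at 1.15 CPM in cells without Krt10, 1.03 at 1 UMI and 0.99 at 2 to 4 UMIs. Krt10 itself lay between 6.88 and 27.2 CPM in these libraries. Krt10 was thus present at a low level in glands with little of its partner Krt1.

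The FVB/NJ stages offered the only groups with replicate libraries. Counts were summed over cells with 2 or more Epcam UMIs, and adults (3 libraries), pregnancy day 12.5, pregnancy day 18.5 and lactation day 10 (2 each) were compared in 1 edgeR quasi-likelihood F test per gene. Adult FVB/NJ replicate 2 was of another format, with cell barcodes of 14 bases against 16 in the other libraries. It also had the lowest median, 2498 UMIs per cell. Of 14584 genes tested, 27.4% were called at an adjusted p under 0.05. Of the 10 genes, 7 passed the low-count filter and were tested, and 6 of these were called. Calm4, Stfa1 and Stfa3 were not tested, with 393, 2 and 58 UMIs in all 9 libraries.

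Krt77 gave the most stable call. Its level was 0.89, 0.82 and 0.52 CPM in the 3 adult libraries, 0.08 and 0.18 at pregnancy day 12.5, 4.71 and 4.47 at pregnancy day 18.5, and 0.05 and 0.33 at lactation. The 2 pregnancy day 18.5 libraries stood above all others without overlap (adjusted p = 0.00164 by edgeR's quasi-likelihood F test). The log2 difference from adults was 3.37 with TMM scaling and 2.63 without it, and the CPM values given here are not TMM-scaled. The call held under every alternative run, with adjusted p between 1.54e-12 and 0.0160. Among Epcam cells of the 2 pregnancy day 18.5 libraries, 127 (2.56%) and 74 (3.01%) had a Krt77 UMI, at most 4 and 7 UMIs in a cell.

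The Krt77 cells carried luminal keratin and little Krt10. Krt10 was at 18.9 and 24.6 CPM in them, beside 18.6 and 18.0 CPM in Epcam cells without Krt77. Krt18, a luminal keratin, was at 1814 and 1824 CPM against 824 and 584 CPM, and the basal keratin Krt14 at 181 and 80.3 CPM against 269 and 163 CPM. The luminal list, which holds milk genes, was lower, at 24625 and 15673 CPM against 49367 and 55853 CPM, and the cells were shallower, with medians of 4034 and 7768 UMIs against 6732 and 12276. This class was also chosen after seeing the data.

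The other stage calls leaned on single libraries or on scaling. Krtdap was at 0.38, 0 and 0.22 CPM in adults, at most 0.04 CPM in pregnancy, and at 0 and 15.3 CPM in the 2 lactation libraries (adjusted p = 0.00347 by edgeR). Krt1 was at 9.52 CPM in lactation day 10 replicate 2 and at most 1.47 CPM elsewhere (adjusted p = 0.00488, same test). Without that library, which held the 21 Krt10-positive cells, the adjusted p was 0.256 for Krtdap, 0.403 for Krt1 and 0.247 for Krt10 by the same test. Krt10 itself (adjusted p = 0.0270) and Sbsn (0.0442) were lost under several other alternatives, and Lor was not called (0.871).

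Dmkn was called (adjusted p = 0.00602 by edgeR's quasi-likelihood F test), with 22.4, 11.9 and 10.7 CPM in adults, 23.4 and 19.6 at pregnancy day 12.5, 44.0 and 21.5 at pregnancy day 18.5, and 20.8 and 17.4 at lactation. The lactation libraries are dominated by milk RNA. Without TMM scaling the median log2 difference of all genes from adults was -2.65 at lactation and -0.88 at pregnancy day 18.5, against -0.11 and -0.09 with it. The sign at lactation turned for Sbsn, at -1.21 unscaled and 1.36 with TMM, and for Krt77, at -1.76 and 0.76. Without TMM the calls of Dmkn (adjusted p = 0.116) and Krt10 (0.579) were lost and Lor was gained (0.0306), by the same test.

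The chromosome 7 neighbours were found in stromal cells of the adult gland. Among the 9 later libraries with 20 or more fibroblast-gated cells, Krtdap was higher in these than in Epcam cells in 8 and at 0 in both in the other, with a median of 111 CPM (range 0 to 373) against 0.378 CPM. Sbsn was higher in 8 of 9, with a median of 292 CPM (12.7 to 557) against 21.3 CPM. Dmkn was higher in 7 of 9, with a median of 228 CPM (12.7 to 589) against 20.8 CPM. The Poisson intervals, which cover counting error only and not the spread between cells, were apart in 8, 7 and 7 libraries. For Krtdap these included pregnancy day 18.5 replicate 1, with 3 UMIs in fibroblast-gated cells. They also included lactation day 10 replicate 1 and adult FVB/NJ replicate 2, with 4 UMIs each. The exceptions for Sbsn and Dmkn were libraries of pregnancy day 18.5 or lactation day 10.

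Krt10 also was higher in fibroblast-gated than in Epcam cells in 8 of the 9 libraries, by less, with a median of 28.9 against 17.4 CPM and intervals apart in 4. Lor was higher in 4 of 9, with intervals apart in none. Krt1, Krt77, Calm4, Stfa1 and Stfa3 had a median of 0 CPM in fibroblast-gated cells. In Epcam cells the median was also 0 CPM for Calm4, Stfa1 and Stfa3, and only 0.957 CPM for Krt1 and 0.888 CPM for Krt77. Detection of the neighbours coincided cell by cell. In adult FVB/NJ replicate 1, Dmkn was detected in 86.5% of 37 fibroblast-gated cells with Krtdap and in 22.9% of 105 without it, with medians of 4970 and 3995 UMIs. The shares were 89.2% and 10.1% in post-involution, 58.2% and 25.4% in adult C57BL/6, 40.0% and 11.9% in adult SWISS, and 83.2% and 14.6% in lactation day 10 replicate 2. These pairs of shares, and the ratio between gates, were computed after seeing the data.

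The neighbours were higher in Epcam than in fibroblast-gated cells in the postnatal day 5 library. There Dmkn was at 45.8 CPM in fibroblast-gated cells against 562 in Epcam cells, and Krtdap at 97.6 against 603 CPM. Sbsn had 0.169 times its Epcam-cell level of 82.8 CPM. In the fibroblast-rich skin library Dmkn was at 5.46 CPM and Krtdap at 9.34 CPM in 8460 gated cells, against 219 and 120 CPM in its 176 Epcam cells. Sbsn alone was even between gates there (18.5 and 19.8 CPM) and in the E18.5 mammary library (21.2 and 21.1 CPM). At pre-puberty Krtdap and Dmkn had no UMI in the 373 gated cells, and Sbsn was at 3.35 against 49.8 CPM.

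**Figure D5:**
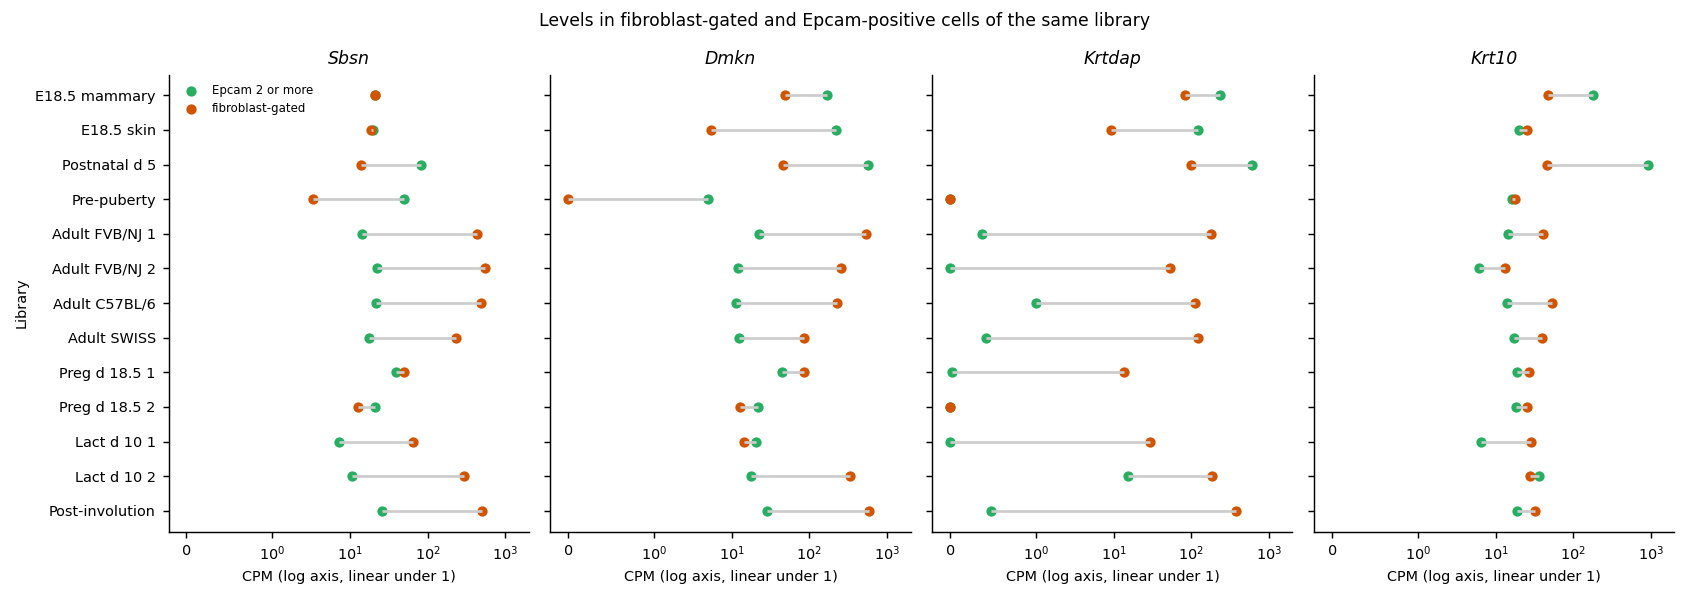
Levels (CPM, log axis, linear under 1) of Sbsn, Dmkn, Krtdap and Krt10 in fibroblast-gated cells and in Epcam cells of each library with 20 or more gated cells. Adult and post-involution libraries lie on the fibroblast side for the 3 neighbours, with Krtdap medians over the later libraries of 111 and 0.378 CPM, whereas postnatal day 5 lies on the Epcam side.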

How the data were processed

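Cells were captured with the 10x Chromium 3′ kit, and the authors aligned reads with Cell Ranger (3.1.0 in the processing notes, with 3.0.2 in the headers of most files) against mm10 and deposited UMI counts per gene for barcodes with at least 500 reads. The limits of the study on genes, UMIs and mitochondrial share were applied again, with more than 500 genes required of a cell here. The upper limits served against doublets, since no doublet caller was run. CPM is relative to all UMIs of the cells summed, except that the totals of the Krt10 comparison leave out the UMIs of Krt10.

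Levels carry exact 95% Poisson or binomial intervals. Counts summed per library were fitted with edgeR 4.0.16 (TMM, filterByExpr, glmQLFit and glmQLFTest, Benjamini-Hochberg over all genes tested) in R 4.3.3, with DESeq2 1.42.0 as an alternative, and Python 3.11.15 for the rest. The library was the block in the Krt10 comparison because both sums of a pair came from 1 library. In data simulated from the Krt10 comparison (13077 genes) 93.5% of 200 genes changed 4-fold were recovered, and 6.97% of calls were false. For the stages (14584 genes) 99.5% were recovered and 2.45% were false. The simulation took only mean levels from the data, gave every gene the same dispersion and changed only genes with ample counts. These rates therefore need not hold for the real comparisons. In the stage test p-values measure the spread between libraries of pooled animals. In the Krt10 comparison the block removes that spread. Its p-values measure how alike the within-library difference was in 2 libraries of different stages, with information shared between genes.

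Named genes were the 10 members, at most 4 called genes per list by largest fold, and the 12 genes most like the members, of which 1 is not reported here. Members and lists were chosen with earlier results of these data known. Alternatives covered the Krt10 and Epcam gates, scaling, low counts, depth, barcodes and single libraries.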

Additional observations from a re-analysis of the deposited data

Results flagged for a closer look

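At postnatal day 5 the ratio of the level in fibroblast-gated cells to that in Epcam cells was 0.169 for Sbsn, 0.0815 for Dmkn and 0.162 for Krtdap. In the 4 adult libraries with 20 or more gated cells the ratio was above 1 throughout. It was at least 13.1 for Sbsn and 6.80 for Dmkn, and for Krtdap the lowest was 110 in the 3 libraries whose Epcam cells had any Krtdap UMI. The 2 stages moved in opposite directions for all 3 genes, and the difference between them was not tested.

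Lactation day 10 replicate 2 held 21 cells with 5 or more Krt10 UMIs, in an adult gland and outside the immature libraries followed here, and lactation day 10 replicate 1 held 0. Of the 21 cells, 57.1% had 2 or more Epcam UMIs.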

How the results depend on the processing

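In the Krt10 comparison 1523 genes were called, and 39 with a gate of 2 or more Krt10 UMIs (4 members lost, 2 more libraries entering), 706 with that gate in the 2 libraries alone, an alternative added after seeing the data, 870 without TMM scaling, 2593 without a filter on low counts and 0 without the replicate block (1663 at an unadjusted p under 0.05), where all 9 members kept their direction. With 1 of the 2 libraries left out no test was possible and the members kept their sign. The stages gave 3998 calls, 12894 without TMM, and between 2081 and 6366 with 1 library left out (2081 or 2121 without either library of pregnancy day 12.5, 2470 or 2473 of pregnancy day 18.5, 2264 without lactation day 10 replicate 2 and 6366 without adult FVB/NJ replicate 2). The labels give no pairing of libraries across stages, so no paired analysis was possible because the letters in the titles do not match.

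The summed level moved beyond its counting interval with all barcodes or without cells above the 95th percentile of UMIs: to 1714 and 1704 CPM in the E18.5 mammary library and to 8495 and 8333 CPM at postnatal day 5. Without these cells it was 80.5 CPM in skin. The share of Krt10-positive cells with 1 or more Epcam UMIs was 84.3% at E18.5, where its interval overlapped that of cells without Krt10 (89.1%), and 61.4% at postnatal day 5 (72.2%). With 2 or more in thinned cells it was 13.1% and 5.90%, and with 1 or more in thinned cells 41.7% and 22.7%. For single genes 169 values kept their side of the threshold or their range under an alternative, 33 lost the call, 1 gained it and 2 moved. The lactation differences of Sbsn and Krt77 turned sign without TMM, at -1.21 and -1.76. The cause of the changes was not tested. Lor and Krt77 rest on 136 and 57 UMIs in the E18.5 mammary library.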
